A study of Sus scrofa with 6 samples.

Results

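Chromatin remodelling and architectural proteins were followed in porcine fibroblasts and in induced pluripotent stem cells (piPSCs) made from them. The members were the genes whose pig symbol begins with SMARC, CHD and a digit, ARID, INO80, BRD and a digit, BAZ1, BAZ2, HMGA, HMGB or HMGN and a digit, CHAF1, ASF1, ACTL6 or RUVBL. DPF1 to DPF3, MTA1 to MTA3, BPTF, ATRX, DAXX, CTCF and RAD21 completed the rule. It found 60 genes among the 25322 gene IDs of the table, of which 11804 had a symbol. A further 14 symbols of the rule, among them HMGA1, MTA1, BPTF, SMARCD2 and SMARCE1, had no matching ID, and they are not analysed here. ACTL6B, SMARCA2 and HMGA2 were not matched either and are likewise not analysed here.

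RNA was sequenced from 3 groups of 2 libraries each, all from the Small Xiang Pig. They were piPSCs at passage 10, labelled Rex1- (P10), piPSCs at passage 5, labelled Rex1+ (P5), and the progenitor fibroblasts, labelled PEF, also at passage 5. Rex1, encoded by ZFP42, marks undifferentiated pluripotent cells. The sources used here do not state the reprogramming agents, the number of clones or the culture of the piPSCs. The authors deposited 1 FPKM value per gene and group (fragments scaled to gene length and library size), so no difference has a replicate check and none was tested. In these bulk samples fewer cells of a type and less RNA per cell cannot be told apart.

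DNA in the nucleus is wound on histones as nucleosomes, and remodellers are ATP-driven machines that slide, eject or exchange them. They fall into the SWI/SNF, ISWI, CHD and INO80 families. Each machine is an ATPase with partner subunits, many of which come from small gene families whose members replace each other between cell types. In mouse, the SWI/SNF complex of embryonic stem cells carries Smarca4, Smarcc1 and Smarcd1 and little Smarcc2, while neurons exchange Actl6a for Actl6b and take up Dpf1 or Dpf3. Histone chaperones deposit new histones behind the replication fork, HMG proteins bend DNA or bind nucleosomes without an ATPase, and CTCF and cohesin shape chromatin loops.

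The FPKM summed to 826083 in P10, 628992 in P5 and 821130 in PEF, and genes of the mitochondrial genome took 31.1%, 19.1% and 15.7% of these sums. All 11 measured fibroblast markers were lower in P10 and in P5 than in PEF, with summed FPKM of 1014, 718 and 8968 in P10, P5 and PEF. VIM alone was at 969, 589 and 5403, most of each sum, so the order of P10 and P5 in the sums follows VIM. In P10 against P5, 3 of the 11 were lower by at least 1 on log2(FPKM + 1) and 0 were higher. Of all genes compared below, 8.48% were lower and 7.57% higher. Of 10 pluripotent and epithelial markers listed, 4 were measured (LIN28A, DNMT3B, EPCAM and CDH1), with sums of 243, 548 and 2.22. LIN28A alone was at 204, 299 and 0.325. On log2(FPKM + 1) LIN28A differed by -0.55 in P10 minus P5, and DNMT3B, EPCAM and CDH1 by -2.66, -2.59 and -2.48. Of 12 neural markers listed 10 were measured, with sums of 1261 in P10, 503 in P5 and 109 in PEF. The 3 endothelial markers measured summed to 3.21, 18.6 and 2.81, and the 5 immune markers to 4.44, 2.15 and 4.24, with PTPRC and LYZ listed at 0 in P10 and PEF and CSF1R in P5 and PEF. The 7 replication and proliferation markers measured summed to 345, 496 and 69.9. The part of these other cell features in the differences below was not tested.

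The members had a higher median level than the compared genes as a whole in every group. Their median FPKM was 25.4 in P10, 22.9 in P5 and 15.5 in PEF, against 7.78, 7.92 and 8.11 over all 13998 IDs that reached an FPKM of 1 in at least 1 group. Of the 60 members 58 reached that level and were compared. The exceptions were DPF3, at 0.695 in P10, 0.980 in P5 and 0.150 in PEF, and HMGB4, listed at 0 in all 3 groups. CHD4 was the highest member in P10 at 238, HMGN2 in P5 at 277 and CHD3 in PEF at 172.

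**Figure D1:**
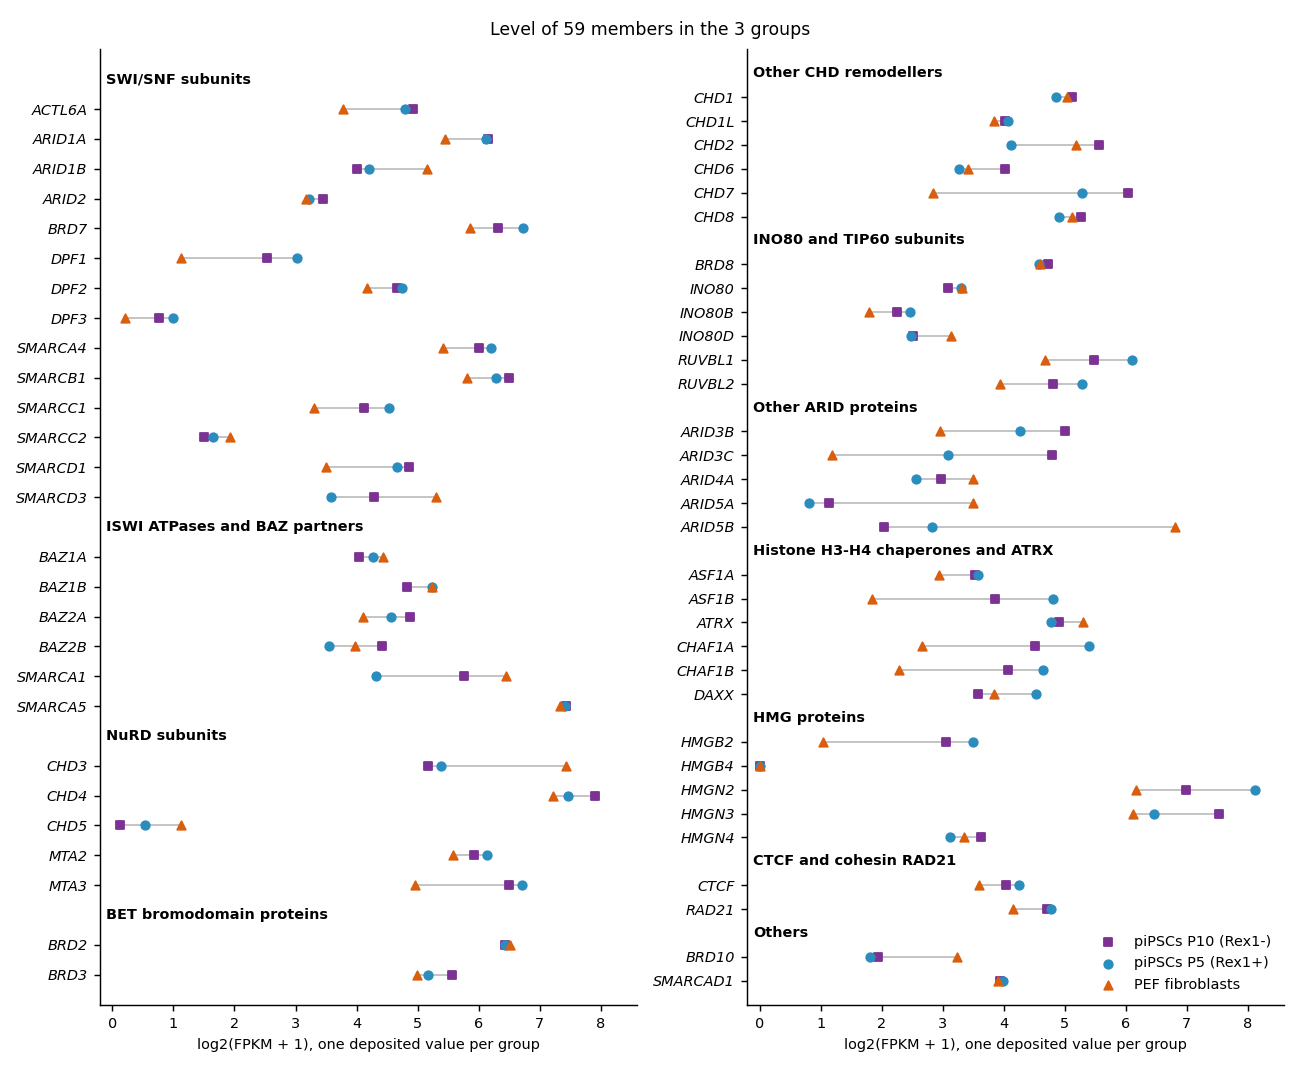
Level of each of 59 members as log2(FPKM + 1) on the horizontal axis, grouped by role, with a square for P10, a circle for P5 and a triangle for PEF (1 deposited value per group, no error). SMARCA5, BRD2 and SMARCAD1 lie at nearly the same place in all groups, while ARID5B, CHD3 and SMARCA1 have the PEF triangle far to the right and CHD7, ASF1B and CHAF1A have it far to the left.

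A member was counted when its log2(FPKM + 1) in 2 groups was at least 1 apart, a scale that understates the difference of low genes. In P5 against PEF 15 of the 58 members were higher (25.9%, beside 21.4% of all compared IDs) and 7 were lower (12.1%, beside 19.6%). In P10 against PEF 12 were higher (20.7%, beside 19.1%) and 7 were lower (12.1%, beside 19.3%). In P10 against P5 4 were higher (6.90%, beside 7.57%) and 1 was lower (1.72%, beside 8.48%). With the values as deposited the shares of lower members were smaller than those of all genes in all 3 comparisons, while the shares of higher members lay on either side. Median differences of the members were 0.25, 0.45 and -0.05 in P5 minus PEF, P10 minus PEF and P10 minus P5, beside 0.09, 0.06 and -0.05 over all compared IDs.

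Scaling moved these counts. Rescaling each column to its sum without mitochondrial genes moved the median of all genes by 0.36, 0.22 and -0.13 in P5 minus PEF, P10 minus PEF and P10 minus P5. In P5 against PEF it gave 23 members higher (39.7%, beside 30.6% of all genes) and 6 lower (10.3%, beside 13.9%). In P10 against PEF it gave 17 higher (29.3%, beside 23.9%) and 4 lower (6.90%, beside 15.2%). In P10 against P5 it gave 3 higher (5.17%, beside 6.17%) and 4 lower (6.90%, beside 11.3%). Quantile normalization gave 19 members higher in P10 against PEF (32.8%, beside 18.2%) and 5 lower (8.62%, beside 18.5%). The share of higher members against PEF thus stood further above that of all genes under these scalings than with the values as deposited. Other settings did not all do so. Median scaling gave 25.9% beside 21.7% in P5 and 20.7% beside 20.1% in P10. Trimmed-mean scaling gave 25.9% beside 21.6% and 20.7% beside 20.1%. A pseudocount of 0.1 put members below all genes, at 25.9% beside 26.7% and 20.7% beside 24.6%. A pseudocount of 5 put them above, at 15.5% beside 10.1% and 17.2% beside 8.92%. No counted difference of a member changed sign under any alternative run.

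Across 2 other pseudocounts and 4 scalings, 14 of the 22 members counted in P5 against PEF stayed counted every time. The other 8 were SMARCD1, SMARCC1, ACTL6A, DPF1, ARID3B, ARID3C, BRD10 and CHD2, which came within 1 of 0 with a pseudocount of 5. In P10 against PEF 13 of 19 stayed, and the other 6 were ACTL6A, DPF1, ARID1B, SMARCD3, CHD5 and BRD10, again with a pseudocount of 5. In P10 against P5 4 of 5 stayed, and HMGN3 was at 0.90 without mitochondrial genes.

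**Figure D2:**
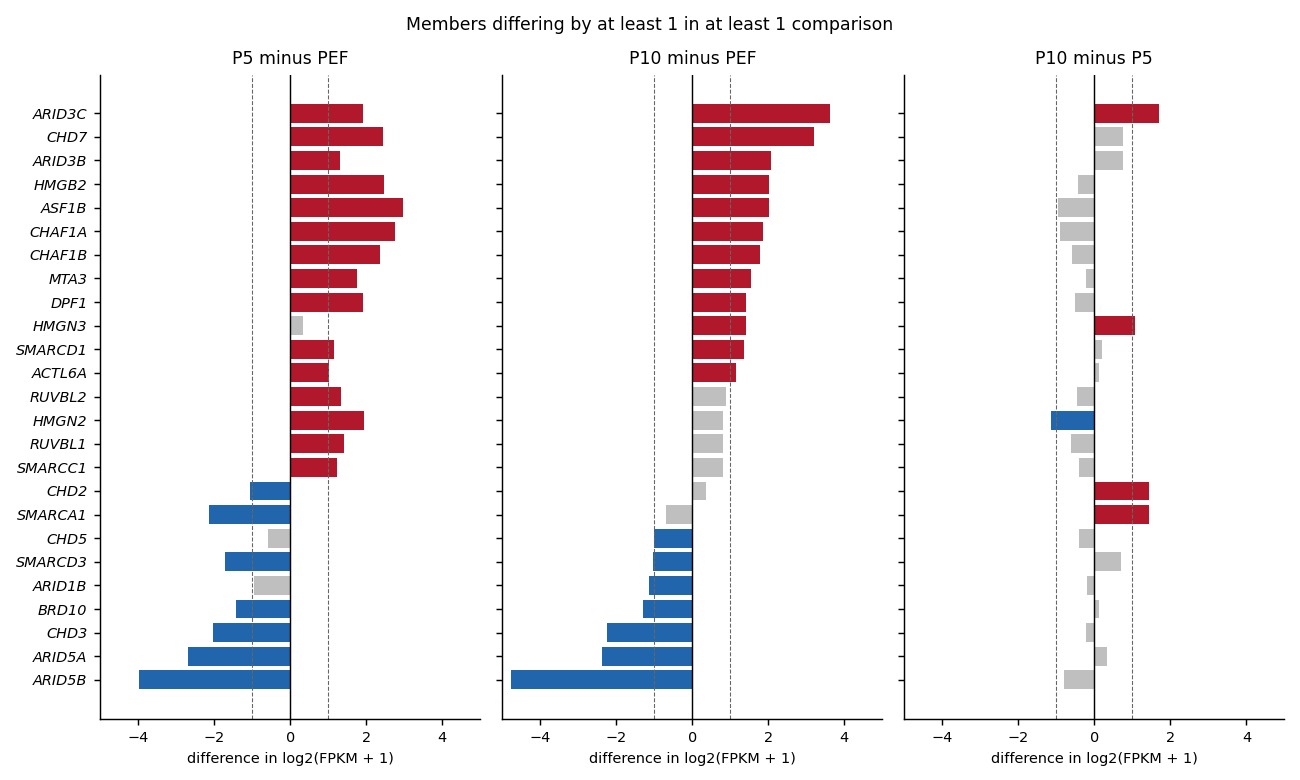
Differences in log2(FPKM + 1) of the 25 members that were counted in at least 1 comparison, for P5 minus PEF, P10 minus PEF and P10 minus P5; red bars are counted as higher, blue as lower, grey bars lie between -1 and 1 (dashed lines). The left and middle panels share the PEF values; ARID5B has the longest bar to the left in both, and 5 of the bars in the right panel pass a dashed line.

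SWI/SNF subunits had positive median differences to PEF in both piPSC groups, and the balance inside the SMARCC, SMARCD and ARID1 families differed from that of the fibroblasts. Of the 13 compared, 4 were higher (30.8%, beside 21.4% of all compared IDs) and 1 lower (7.69%, beside 19.6%) in P5 against PEF. In P10 against PEF 3 were higher (23.1%, beside 19.1%) and 2 lower (15.4%, beside 19.3%). Medians were 0.67 in P5 and 0.59 in P10. SMARCA4, the ATPase BRG1, had an FPKM of 63.5 in P10 and 72.9 in P5, against 41.7 in PEF. SMARCB1, a core subunit, was at 89.7 in P10, 77.3 in P5 and 55.4 in PEF. As deposited both lay under the counting level. SMARCA4 passed it in P5 with quantile normalization (1.08) and without mitochondrial genes (1.23), and SMARCB1 in P10 with quantile normalization (1.05). ACTL6A, the actin-related subunit of proliferating cells that also serves INO80 and TIP60, was at 29.5 in P10 and 26.9 in P5, against 12.8 in PEF. Its difference was 1.15 for P10 and 1.02 for P5. ACTL6A shares its locus with MRPL47 (16.9 in P10, 16.4 in P5 and 10.4 in PEF), and the division of reads between them is uncertain.

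SMARCC1 and SMARCC2 are alternative scaffold subunits. SMARCC1 was at 16.3 in P10 and 22.04 in P5, against 8.88 in PEF, while SMARCC2 was low everywhere, at 1.82, 2.13 and 2.80. SMARCC1 was counted in P5 (1.22), and in P10 (0.81) it passed without mitochondrial genes (1.07). SMARCC2 thus made up 10.0% of the pair's summed FPKM in P10, 8.82% in P5 and 23.97% in PEF. SMARCC1 shares its locus with an unnamed ID of higher FPKM (147 in P10, 195 in P5 and 103 in PEF), and the division of reads between them is uncertain.

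In the SMARCD pair the leading gene differed between piPSCs and fibroblasts. SMARCD1 was at 28.0 in P10 and 24.3 in P5, against 10.3 in PEF. SMARCD3, the paralogue known from heart and skeletal muscle in mouse, was at 18.5 in P10 and 11.0 in P5, against 38.6 in PEF. SMARCD3 held 39.8% of the pair in P10 and 31.2% in P5, against 78.9% in PEF. Its difference to PEF was -1.72 in P5 and -1.03 in P10, the second within 1 of 0 under all 4 scalings (-0.97 with median scaling, -0.75 with quantile normalization).

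ARID1A and ARID1B are alternative DNA-binding subunits of the canonical complex. ARID1A was at 70.4 in P10 and 68.6 in P5, against 42.7 in PEF, and ARID1B was at 15.2 in P10 and 17.5 in P5, against 34.8 in PEF. ARID1B made up 17.7% of the pair in P10 and 20.3% in P5, against 44.9% in PEF. It differed from PEF by -1.15 in P10, a value within 1 of 0 with quantile normalization (-0.90) and without mitochondrial genes (-0.87). The row named ARID1A spans 5345 bases of the susScr3 build, so its FPKM rests on a short gene model. ARID1A was not counted as deposited, but passed in P10 with quantile normalization (1.07) and in P5 without mitochondrial genes (1.11). ARID2 and BRD7, subunits of the polybromo form, were at 9.97 and 78.6 in P10, 8.36 and 105.5 in P5, and 8.06 and 57.0 in PEF. BRD7 in P5 lay at 0.88 and passed with quantile normalization (1.23) and without mitochondrial genes (1.31).

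Among the PHD finger subunits DPF2, the broadly expressed one, was at 24.4 in P10, 25.8 in P5 and 17.04 in PEF. DPF1, the subunit of neuronal complexes in mouse, was at 4.79 in P10 and 7.17 in P5, against 1.18 in PEF. DPF1 thus held 16.4% of the DPF1 and DPF2 sum in P10 and 21.7% in P5, against 6.47% in PEF. In P10 minus P5 DPF1 lay at -0.50, while the 10 neural markers had a median of 1.23. DPF3, the other neuronal and muscle form, stayed under an FPKM of 1. Of the progenitor to neuron switches none could be followed in full, since ACTL6B and SS18L1 were not matched. PHF10, the PHD subunit of neural progenitors, was under an FPKM of 1, at 0.298 in P10, 0.202 in P5 and 0.314 in PEF. Its row lies at a locus of 2 IDs, and whether its RNA was low or the row took few reads cannot be told. The shares above set DPF1 beside the broadly expressed DPF2 and are not that switch.

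SWI/SNF partners outside the member rule included 2 counted as higher in both piPSC groups. BCL7A, a nucleosome-binding subunit, was at 14.4 in P10 and 11.1 in P5, against 1.84 in PEF. BCL11A, a zinc finger factor of neurons and blood that joins the complex, was at 10.7 in P10 and 9.50 in P5, against 1.46 in PEF. Of the 9 compared, 2 were higher and 1 lower in each piPSC group against PEF, and none was counted in P10 against P5. Over all compared IDs, 21.4% were higher and 19.6% lower in P5 against PEF, and 19.1% and 19.3% in P10 against PEF. The lower partner was ACTB, the cytoskeletal actin that is also a subunit, at 577 in P10, 788 in P5 and 1776 in PEF.

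**Figure D3:**
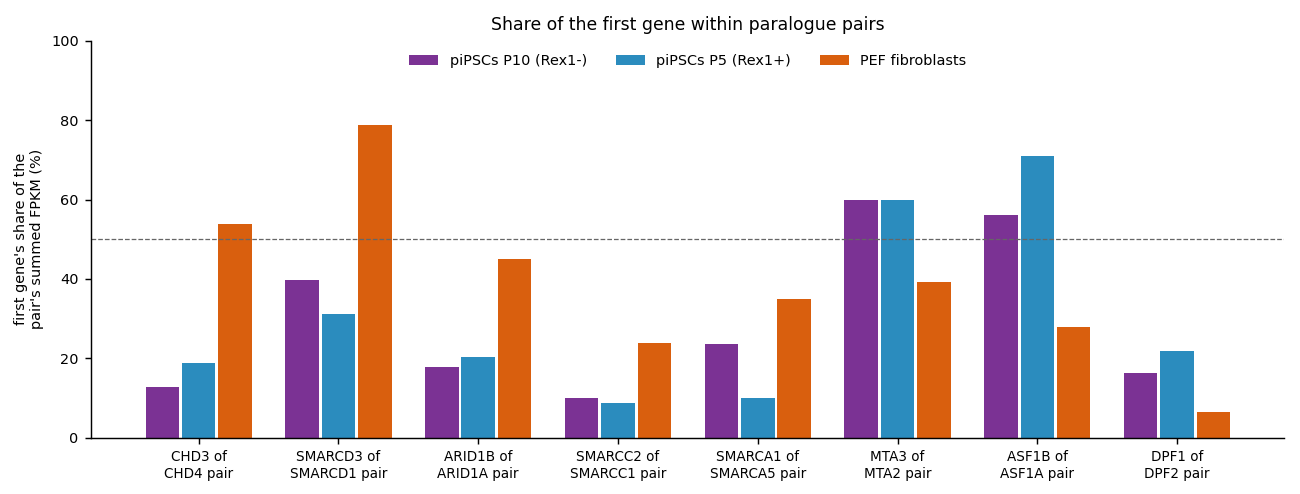
Share of the first-named gene in the summed FPKM of 8 of the 14 paralogue pairs that could be formed, in percent, with bars for P10, P5 and PEF from left to right (1 value per group, no error); the dashed line marks 50%. The CHD3, SMARCD3 and ARID1B bars of PEF stand well above those of both piPSC groups, the MTA3 and ASF1B bars of PEF stand below them, and SMARCA1 has its lowest bar in P5.

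NuRD joins a CHD ATPase to histone deacetylases, and the balance of its ATPase genes differed between piPSCs and fibroblasts. CHD3 was at 35.2 in P10 and 41.0 in P5, against 172 in PEF, differences of -2.26 and -2.04. CHD4 was at 238 in P10, 177 in P5 and 148 in PEF, counted only with quantile normalization in P10 (1.14). CHD3 thus made up 12.9% of the pair in P10 and 18.8% in P5, against 53.7% in PEF. CHD4 lies at a locus of 10 IDs that includes GAPDH at 2548 in P10, 2022 in P5 and 4096 in PEF, so the reads credited to CHD4 are uncertain. CHD5, the neuronal ATPase, was at 0.0919 in P10, 0.449 in P5 and 1.19 in PEF, and was counted as lower in P10 (-1.004, but -0.98 with median scaling). With a pseudocount of 0.1 it was also counted as lower in P10 against P5 (-1.52) and in P5 against PEF (-1.23).

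MTA3, a scaffold subunit of NuRD, was higher in both piPSC groups, at 89.6 in P10 and 103.9 in P5, against 30.2 in PEF. Its differences were 1.54 and 1.75. MTA2, the alternative scaffold, was at 59.9 in P10, 69.4 in P5 and 46.7 in PEF, so that MTA3 held 59.9% of the pair in P10 and in P5, against 39.3% in PEF. Of 7 NuRD partners compared outside the rule, 2 were higher and 1 lower in each piPSC group against PEF. The shares over all compared IDs were 21.4% higher and 19.6% lower in P5, and 19.1% and 19.3% in P10. HDAC2 was at 185 in P10 and 184 in P5, against 87.0 in PEF, and GATAD2A at 40.8 and 55.8, against 19.0. MBD2, the subunit that binds methylated DNA, was at 6.09 in P10 and 16.1 in P5, against 83.4 in PEF, while MBD3, its paralogue in NuRD that binds methylated DNA poorly, was at 36.2, 56.9 and 42.5. MBD2 was also counted as lower in P10 against P5, at -1.27, the only NuRD partner counted there. HDAC1 was listed at 0 in all 3 groups. Whether its RNA was absent or the row took no reads for a technical reason cannot be told from these values.

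ISWI remodellers space nucleosomes and pair their ATPase with BAZ proteins. SMARCA5, the ATPase SNF2H, was nearly level, at 172 in P10, 170 in P5 and 160.0 in PEF. SMARCA1, its paralogue SNF2L, was at 53.2 in P10, 18.9 in P5 and 86.0 in PEF. The difference was -2.13 for P5 against PEF, -0.68 for P10 against PEF and 1.45 for P10 against P5. SMARCA1 made up 23.6% of the pair in P10, 10.0% in P5 and 34.9% in PEF. No BAZ gene was counted as deposited, and BAZ2A passed in P10 against PEF with quantile normalization (1.01) and without mitochondrial genes (1.04). BAZ1A and BAZ1B, partners in nucleosome spacing, were at 15.4 and 27.5 in P10, 18.2 and 36.9 in P5, and 20.5 and 36.8 in PEF. BAZ2A, which helps silence ribosomal genes, was at 28.5 in P10, 22.8 in P5 and 16.2 in PEF, and BAZ2B was at 20.4, 10.7 and 14.7. Of 4 further ISWI partners compared, only CECR2, which mouse embryos need for neural tube closure, was counted. CECR2 was higher in both piPSC groups against PEF, beside 21.4% of all compared IDs in P5 and 19.1% in P10. It was at 53.1 in P10 and 43.2 in P5, against 1.78 in PEF, differences of 4.28 and 3.99.

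Among the other CHD remodellers CHD7 stood out. This ATPase, mutated in CHARGE syndrome and needed in neural crest, was at 64.6 in P10 and 37.8 in P5, against 6.13 in PEF. Its difference to PEF was 3.20 in P10 and 2.45 in P5. CHD2, whose loss causes childhood epilepsy in humans, was at 46.0 in P10, 16.3 in P5 and 35.4 in PEF. P5 was thus the low group, by -1.07 against PEF (-0.64 without mitochondrial genes, -0.85 with quantile normalization), and P10 was 1.44 above P5. CHD1, CHD1L, CHD6 and CHD8 were not counted in any comparison. CHD1, a remodeller of transcribed genes, was at 33.9 in P10, 28.1 in P5 and 31.8 in PEF, and CHD1L, which acts at DNA breaks, was at 15.3, 15.9 and 13.3. CHD6 and CHD8 had the same order of groups as CHD2, at 15.2 and 37.3 in P10, 8.59 and 28.9 in P5, and 9.68 and 33.9 in PEF. CHD8 shares its locus with SNORD9 (538 in P10, 203 in P5 and 267 in PEF) and SNORD8 (94.4, 0 and 218). The reads credited to CHD8 are thus uncertain.

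INO80 and TIP60 complexes exchange histone variants and share the AAA ATPases RUVBL1 and RUVBL2. With the values as deposited these 2 were the counted members among the 6 compared (33.3%, beside 21.4% of all compared IDs). They were higher in P5 against PEF by 1.42 and 1.34. RUVBL1 was at 43.9 in P10 and 67.5 in P5, against 24.6 in PEF, and RUVBL2 was at 27.2 in P10 and 37.8 in P5, against 14.3 in PEF. In P10 against PEF they lay at 0.81 and 0.88, and above 1 with quantile normalization (1.10 each) and without mitochondrial genes (1.08 and 1.14). INO80, the ATPase itself, was at 7.55, 8.83 and 8.99, and BRD8, a TIP60 subunit, was at 25.6, 23.0 and 23.2 in P10, P5 and PEF. Outside the rule, 13 partners were compared. In P5 against PEF 3 were higher (MCRS1, UCHL5 and ACTR8) and 0 lower, beside 21.4% and 19.6% of all compared IDs. None was counted in P10 against PEF, beside 19.1% higher and 19.3% lower. None was counted in P10 against P5 either, beside 7.57% and 8.48%. MCRS1 lies at a locus of 6 IDs. UCHL5, a deubiquitinase of INO80, was at 8.59 in P10, 15.3 in P5 and 6.92 in PEF.

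BRD2 and BRD3, which read acetylated histones, did not reach the counting level in any comparison. BRD2 was at 85.4 in P10, 85.3 in P5 and 90.5 in PEF, and BRD3 was at 46.3, 35.2 and 30.7.

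ARID proteins outside SWI/SNF held the largest differences of the members in both directions in P10 against PEF. ARID5B, a DNA-binding partner of the demethylase PHF2 (chromosome 14, 70609582 to 70684100 on susScr3), was at 3.11 in P10 and 6.11 in P5, against 111 in PEF. These are differences of -4.77 and -3.98. ARID5A, known in mouse for binding and stabilising Il6 mRNA, was at 1.20 in P10 and 0.751 in P5, against 10.3 in PEF. ARID3C, a DNA-binding factor of the ARID3 family (chromosome 10, 36313981 to 36320929), went the other way, at 26.8 in P10 and 7.51 in P5, against 1.27 in PEF. It was the highest difference among the members both in P10 against PEF (3.62) and in P10 against P5 (1.71). ARID3B of the same family was at 31.2 in P10 and 18.3 in P5, against 6.73 in PEF, in a row that spans 600 bases. ARID4A, which binds the retinoblastoma protein, was at 6.85 in P10, 4.89 in P5 and 10.2 in PEF, and in P5 it passed with a pseudocount of 0.1 (-1.05).

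CHAF1A, CHAF1B and ASF1B, chaperone genes of nucleosome assembly at replication, were higher in both piPSC groups than in PEF and had their highest values in P5. CHAF1A and CHAF1B, the large subunits of CAF-1, were at 21.7 and 15.7 in P10 and at 41.3 and 24.1 in P5, against 5.30 and 3.85 in PEF. ASF1B, the ASF1 form of proliferating cells that passes histones H3 and H4 to CAF-1, was at 13.5 in P10 and 26.9 in P5, against 2.59 in PEF. Differences to PEF were 2.75, 2.37 and 2.96 for CHAF1A, CHAF1B and ASF1B in P5, and 1.85, 1.78 and 2.01 in P10. ASF1A, its paralogue, was at 10.6 in P10, 11.0 in P5 and 6.69 in PEF, so ASF1B held 56.1% of the pair in P10 and 71.1% in P5, against 27.9% in PEF. ASF1A in P5 passed without mitochondrial genes (1.03). Beside these, all 7 proliferation markers measured were higher in P5 and in P10 than in PEF, with medians of 2.74 and 2.11. MCM2 of the replicative helicase was at 52.2 in P10 and 80.7 in P5, against 4.89 in PEF. Whether the chaperone values follow the share of dividing cells was not tested.

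DAXX and ATRX deposit the histone variant H3.3 outside replication. DAXX was at 11.0 in P10, 22.1 in P5 and 13.4 in PEF, and ATRX at 29.0, 26.3 and 38.2. Neither was counted as deposited. DAXX lay at 0.68 in P5 minus PEF and -0.94 in P10 minus P5, and passed in both without mitochondrial genes (1.10 and -1.10). Of 16 histone chaperones compared outside the rule, 6 were higher and 0 lower in each piPSC group against PEF. The shares over all compared IDs were 21.4% higher and 19.6% lower in P5, and 19.1% and 19.3% in P10. NASP, which stores histones H3 and H4, was at 341 in P10 and 527 in P5, against 19.6 in PEF, differences of 4.06 and 4.68. NPM3, of the nucleoplasmin family, was at 104.7 in P10 and 240 in P5, against 26.4 in PEF. NPM3 and NAP1L5 were the chaperones of the list counted in P10 against P5, both lower in P10, with differences of -1.19 and -1.15. HIRA, which deposits H3.3 in genes, was at 16.0 in P10, 26.8 in P5 and 18.4 in PEF and was not counted.

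**Figure D4:**
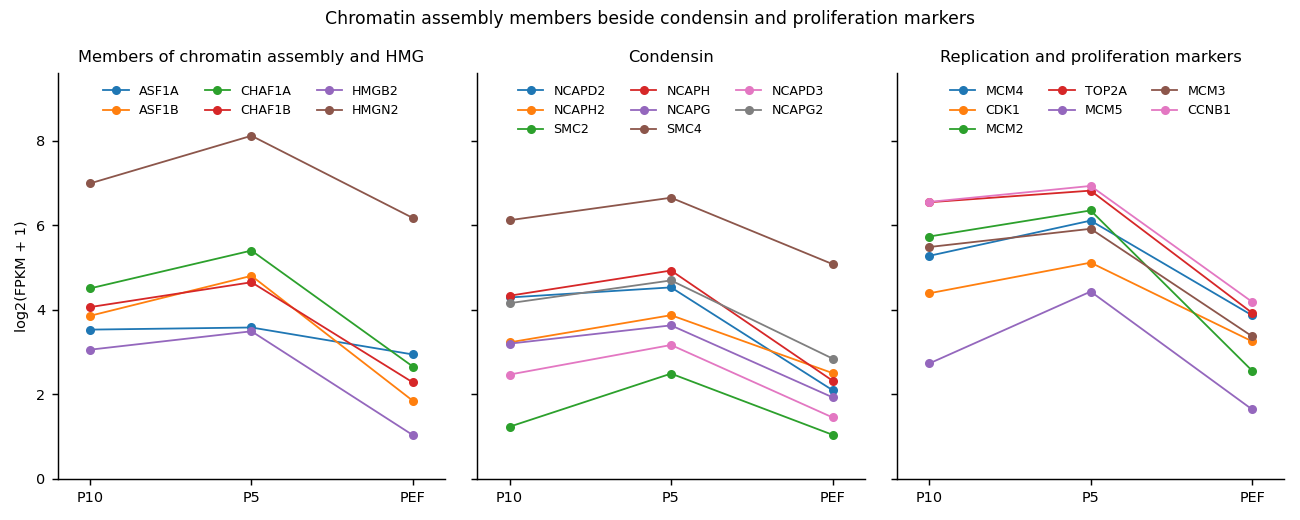
Level as log2(FPKM + 1) in P10, P5 and PEF (left to right) for 6 members of chromatin assembly and the HMG family, shown after their values were seen, beside the 8 condensin genes and 7 replication and proliferation markers; each line joins the 3 values of a gene. In all 3 panels the values peak in P5 and are lowest in PEF. Because the 6 members were chosen with their values known, the likeness of the left panel to the others is not a result. HMGN3, HMGN4, DAXX and ATRX, of the same roles, have other orders of the groups and are not shown.

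HMG proteins differed by member. HMGB2, a DNA-bending protein of proliferating cells, was at 7.31 in P10 and 10.2 in P5, against 1.04 in PEF. HMGN2, which loosens chromatin by binding nucleosomes, was at 126 in P10 and 277 in P5, against 71.1 in PEF. Its difference was 1.95 for P5 against PEF and 0.82 for P10 against PEF (1.19 with quantile normalization, 1.10 without mitochondrial genes). With the values as deposited it was the only member counted as lower in P10 than in P5, at -1.13. HMGN3, of the same family, had its highest value in P10, at 184, against 87.5 in P5 and 68.8 in PEF, differences of 1.06 and 1.41. HMGN4 was at 11.4, 7.70 and 9.18 in P10, P5 and PEF. HMG genes have many processed copies in mammalian genomes, and the sharing of reads with copies is uncertain.

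CTCF, the insulator protein, was at 15.4 in P10 and 18.1 in P5, against 11.0 in PEF, and RAD21, the cohesin subunit that closes the ring, was at 25.3 and 26.5, against 16.8. Their differences of 0.45 to 0.67 to PEF lay under the counting level, but in P5 they were 1.08 and 1.05 without mitochondrial genes. Among further cohesin subunits SMC3 and STAG2 were not counted, with SMC3 at 92.0, 120 and 85.6 and STAG2 at 40.9, 39.3 and 40.0 in P10, P5 and PEF. Of 16 cohesin genes and regulators compared, 4 were higher and 0 lower in P5 against PEF (beside 21.4% and 19.6% of all compared IDs). In P10 against PEF 5 were higher and 1 lower (beside 19.1% and 19.3%). The higher ones included CDCA5, which protects cohesin in dividing cells, at 11.4 in P10 and 15.5 in P5, against 1.004 in PEF. REC8, the kleisin of meiotic cohesin, was at 11.7 in P10 and 3.34 in P5, against 0.541 in PEF, at a locus shared by 2 IDs, and was the only gene of the list counted in P10 against P5 (1.54). STAG1, the paralogue of STAG2, was the lower gene in P10 against PEF (-1.34), at 6.35 in P10, 11.0 in P5 and 17.5 in PEF.

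Condensin, which compacts chromosomes for division, had higher levels in the piPSCs. In P5 against PEF all 8 genes were higher (median 1.71), beside 21.4% of all compared IDs. In P10 against PEF 6 of 8 were (median 1.15), beside 19.1%. NCAPH was at 19.2 in P10 and 29.5 in P5, against 4.002 in PEF. NCAPH and NCAPH2 each lie at a locus shared by 2 IDs, and SMC4 at one shared by 3. NCAPD2 lies at the locus of 10 IDs that holds CHD4 and GAPDH. The division of reads at these loci is uncertain. SMC2 was the only condensin gene counted in P10 against P5, at 1.35 in P10 and 4.61 in P5.

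Few of these genes, and few of all compared IDs, were counted between the later and the earlier piPSCs. The 5 members counted between P10 and P5 were ARID3C, SMARCA1, CHD2 and HMGN3, higher in P10, and HMGN2, lower in P10. The higher ones were 6.90% of the members beside 7.57% of all compared IDs, and the lower one 1.72% beside 8.48%. Without mitochondrial genes 3 were higher (5.17%, beside 6.17%) and 4 lower (6.90%, beside 11.3%). None of the 5 belonged to the SWI/SNF, NuRD or INO80 members, although CHD5 passed with a pseudocount of 0.1 and MBD2, a NuRD partner outside the rule, was counted as lower in P10. SMARCA4 differed by -0.20, SMARCC1 by -0.41, CHD4 by 0.43 and CTCF by -0.22. ASF1B, DAXX and CHAF1A, from -0.95 to -0.90, lay just inside the counting level, and each passed it without mitochondrial genes (-1.10, -1.10 and -1.05). Neural markers differed between the same groups by a median of 1.23, with 7 of 10 higher in P10, and proliferation markers by a median of -0.62. Passage and Rex1 state differ together between P10 and P5 and cannot be told apart.

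The remaining members were SMARCAD1, a remodeller of heterochromatin, at 14.4 in P10, 14.9 in P5 and 14.1 in PEF, and BRD10, at 2.84 in P10 and 2.52 in P5, against 8.41 in PEF. INO80B and INO80D, subunits of INO80, were at 3.79 and 4.72 in P10, 4.53 and 4.61 in P5, and 2.47 and 7.80 in PEF. INO80B in P5 passed the counting level against PEF without mitochondrial genes (1.01). Of the 60 members 13 shared a locus with another ID, INO80B with 11 others, and reads may be divided between neighbours there.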

How the data were processed

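Per the labels' protocols, RNA came from RNeasy kits and went into NEBNext Ultra libraries. The submitters' processing notes name TopHat2 2.0.9, Bowtie2 2.0.6 and the susScr3 build. The authors deposited FPKM in 1 column per group, per the file headers. The sources used here do not give the program, the annotation, the depth or the way the 2 libraries were combined.

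IDs were matched to symbols through a reference table (46.6% of IDs). Loci are those of the deposited table, and whether they count from 0 or 1 is unknown. Values were compared as log2(FPKM + 1) where at least 1 group reached an FPKM of 1, and differences of at least 1 were counted. No p-value was computed. Python 3.11.15 and pandas 2.3.3 were used, and the code was tested on simulated data. Members, pairs and gene lists were chosen with earlier results of these data known. 1 member is not reported here, though it stays in the counts. Values were given for the other pair genes, for the 6 highest and 6 lowest members per comparison among those with an FPKM of at least 5, and for listed genes with the largest differences; others were named after their values were seen. Alternatives were other pseudocounts, filters, scalings, thresholds and leaving out shared loci or zeros.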

Additional observations from a re-analysis of the deposited data

How the results depend on the processing

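Each value is a single deposited number per group, so no spread, interval or left-out library could be had, and the depth behind low values is unknown. No paired analysis was possible because the table holds 1 column per group. The counts of members and genes moved by over 1.5 times as follows. With a pseudocount of 5, 9 members were higher in P5 against PEF (15.5%, beside 10.1% of all genes). In P10 against PEF 3 were lower (5.17%, beside 12.6%). Of all genes, 1416 were then higher and 1826 lower in P5 against PEF, 1249 and 1762 in P10 against PEF, and 444 and 434 in P10 against P5. With a pseudocount of 0.1, 2 members were lower in P10 against P5 (3.45%, beside 12.5% of all genes). Of all genes, 1666 were then higher (11.9%, beside 6.90% of the members). Under a filter on a mean FPKM of 5, 4 members were lower in P10 against PEF (7.69%, beside 21.6% of all genes). Of the 9222 genes then compared, 1784 were higher in P5 against PEF and 1505 in P10 against PEF. In P10 against P5 648 were higher and 718 lower. Quantile normalization gave 19 higher members in P10 against PEF. Without mitochondrial genes 23 members were higher in P5 against PEF, 4 lower in P10 against PEF and 4 lower in P10 against P5. At a difference of at least 2, members higher and lower numbered 5 and 4 in P5 against PEF, 5 and 3 in P10 against PEF, and 0 and 0 in P10 against P5. All genes then numbered 946 and 1096, 945 and 1086, and 171 and 203. These counts are out of 58 members and 13998 genes. The stricter threshold, filter and larger pseudocount count fewer genes by construction.

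Ratios within pairs, as log2 of (FPKM + pseudocount), moved for pairs with a gene of low FPKM. DPF1 over DPF2 in PEF was -3.05 with a pseudocount of 1, -3.75 with 0.1 and -1.83 with 5. DPF3 over DPF2 was -3.91, -3.76 and -3.97 in P10, P5 and PEF with 1, -4.95, -4.59 and -6.10 with 0.1, and -2.37, -2.37 and -2.10 with 5. DPF1 over PHF10 was 2.16, 2.77 and 0.73 with 1, 3.62, 4.59 and 1.62 with 0.1, and 0.89 in P10 and 1.23 in P5 with 5. DPF3 over PHF10 was 0.39 in P10 and 0.72 in P5 with 1, and 0.999 and 1.84 with 0.1. Ratios to PHF10 rest on FPKM under 1 at a locus of 2 IDs. SMARCC2 over SMARCC1 was -2.62 in P10 and -2.88 in P5 with 1, and -1.65 and -1.92 with 5. CHD5 over CHD4 was -7.77, -6.94 and -6.09 with 1, -10.28, -8.33 and -6.84 with 0.1, and -5.58, -5.06 and -4.63 with 5. All other pair ratios moved by less than 1.5 times.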

Other observations

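The order of the 3 groups was counted for each compared member, as a description. No minimum difference was required, so nearly level genes such as SMARCAD1 (14.4 in P10, 14.9 in P5 and 14.1 in PEF) are included. P5 was highest and PEF lowest for 20 of 58 members (34.5%, beside 24.3% of all compared IDs). They included all 4 of the CHAF1 and ASF1 genes, both RUVBL genes, SMARCA4, CTCF and RAD21. All 8 condensin genes and all 7 proliferation markers had this order. P10 was highest and PEF lowest for 13 members (22.4%, beside 19.3%), among them CHD7, CHD4, ARID3B, ARID3C and HMGN3. P10 was highest and P5 lowest for 7 members (12.1%, beside 8.07%), of which 4 were CHD genes, namely CHD1, CHD2, CHD6 and CHD8. These 4 were named after their values were seen, and 2 of them, CHD1 and CHD8, differed by under 0.40 in every comparison. CHD8 also lies at a locus of 3 IDs.

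Members made up 0.393% of the summed FPKM of nuclear genes in P10 and 0.436% in P5, against 0.266% in PEF. HMG proteins summed to 329 in P10 and 383 in P5, against 150 in PEF, most of it HMGN2 and HMGN3. The other ARID proteins summed to 69.2 in P10 and 37.5 in P5, against 140 in PEF, where ARID5B alone was at 111. NuRD subunits summed to 423, 391 and 398 in P10, P5 and PEF, where the lower CHD3 of the piPSCs stood beside CHD4 and MTA3 values above those of PEF.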
